A study of Mus musculus with 9 samples.

Results

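RARA peaks with several summits are regions of RARA binding in which the authors' peak list gives more than 1 local maximum of ChIP signal. They were chosen by the summit positions of the RARA list, as regions for which 2 or more entries share chromosome, start and end and differ in summit. Of 9757 RARA regions, 1259 (12.9%) met this rule, and the other 8498 had 1 summit. The number of summits, their spacing, the peak width, the fold enrichment and the −log10 q come from the same ChIP call that chose the members, so they are given as a description without a test. The tests use the reporter and plasmid lists, which did not enter the choice.

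RARA is a nuclear receptor that binds DNA together with a partner receptor, RXR, at retinoic acid response elements, which are repeats of a short motif. Without ligand the pair can recruit corepressors, and retinoic acid (RA) exchanges these for coactivators. In embryonic stem cells, RA drives the exit from pluripotency, the state that leukemia inhibitory factor (LIF) maintains. A summit is the base at which the pile-up of ChIP fragments is locally highest, and a peak caller can report several of them inside 1 enriched region.

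The cells were E14 mouse embryonic stem cells, an established line grown with LIF. RARA ChIP-seq consisted of 1 library and 1 input library, both from cells without LIF that had received 1 µM RA for 4 h, and the antibody is described in the protocol as a polyclonal antibody against RAR. In FAIRE-STARR-seq, accessible DNA fragments are placed where an active fragment drives its own transcription. The plasmid library, sequenced as 1 input library, carried accessible DNA that had been isolated from cells given 1 µM RA for 4 h. Reporter RNA was measured after 4 h of treatment, in 3 samples with LIF and in 3 samples without LIF that had received 1 µM RA.

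Besides the RARA peaks, the lists used here were the regions of the plasmid input (186959), mESC enhancers, active over the plasmid input in cells with LIF (4674), LIF-dependent enhancers, higher with LIF than after RA (601), and RA-induced enhancers, higher after RA than with LIF (382). They were called on merged replicates, so no value per sample and no read depth was given. Every test therefore treats peaks as the units, has no replicate check of the ChIP, and does not measure the spread between cultures. Positions are in build mm9 and counted from 1. Genes, promoters, motifs and sequences were not analysed here, and the identity of the cells was taken from the labels.

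Most members had 2 summits. There were 1001 such peaks (79.5%), 196 with 3 summits (15.6%), 45 with 4, 9 with 5, 5 with 6, 2 with 7 and 1 with 9. Together they held 2868 of the 11366 summits in the RARA list. Gaps between neighbouring summits of the same peak ranged from 10 to 1138 bp, with a median of 239 bp and quartiles of 167 and 351 bp (n = 1609 gaps). The fullest 50-bp class was above 150 and up to 200 bp, with 21.4% of gaps, whereas 5.53% were 100 bp or less and 2.49% were above 600 bp. Spacing hardly moved with the number of summits, at a median of 232 bp in peaks with 2 summits, 255 bp with 3 and 254 bp with 4, so peaks with more summits were longer. The outermost summits lay a median of 277 bp apart over all members and 603 bp apart in the 258 peaks with 3 or more summits.

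Close summits were almost always reported inside 1 peak. The nearest summits of separate peaks were 329 bp apart, and 74 neighbouring pairs of separate peaks had summits within 500 bp, next to 1487 gaps of that size inside members. At the short end of the spacing, the peak at chr8:19979407-19979867 had 3 summits of 1.45, 1.47 and 1.42-fold enrichment, with a gap of 10 bp between the last 2. The peak at chr17:32433231-32433429 had summits of 2.19 and 2.25-fold, 14 bp apart. At the long end, chr12:60136056-60138710 was the widest RARA peak, at 2655 bp, and held 5 summits with a largest gap of 1138 bp.

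**Figure D1:**
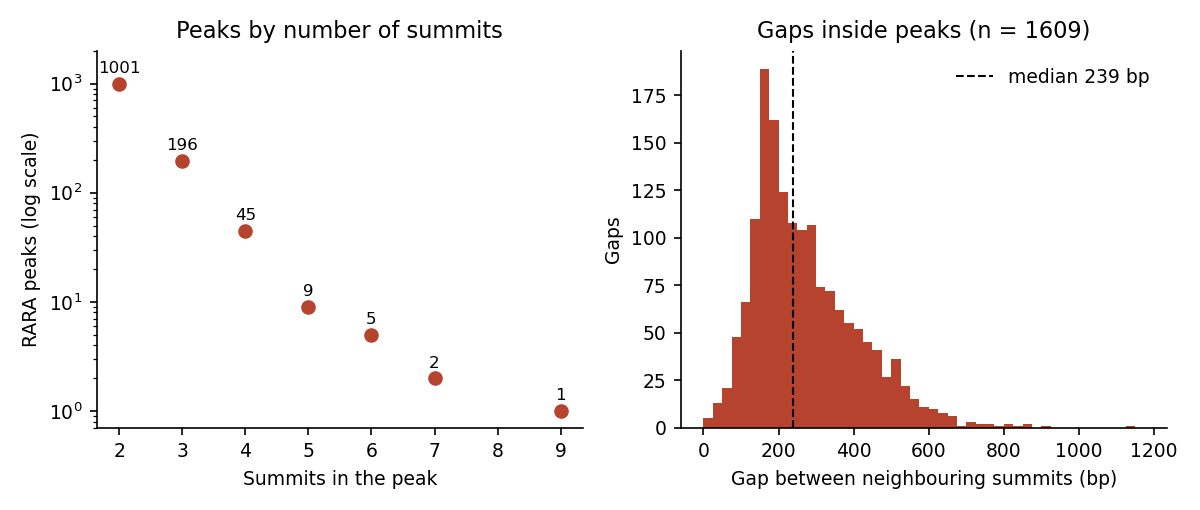
The left panel gives the number of RARA peaks (log scale) with each number of summits, from 1001 peaks with 2 to 1 peak with 9. The right panel is a histogram of the 1609 gaps between neighbouring summits of the same peak in bp, whose median of 239 bp is drawn as a dashed line, with most gaps between 150 and 400 bp.

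Members were wide and slightly stronger than the rest of the list. Their median width was 555 bp (quartiles 409 and 764 bp), against 236 bp (186 and 323 bp) in peaks with 1 summit, and they covered 25.4% of the 3122 kb under RARA peaks. Their highest summit had a median fold enrichment of 3.33 (quartiles 2.84 and 4.51), against 3.04 (2.65 and 3.83). Of the 977 RARA peaks of 5.78-fold or more, the top 10% by fold, 208 (21.3%) were members, and 486 members (38.6%) lay below the median fold of all peaks. The share of members climbed with width, from 0.875% of peaks from 150 to below 250 bp to 36.0% from 450 to below 600 bp and 86.9% at 800 bp or more.

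At equal width the order of fold enrichment turned. Among peaks from 450 to below 600 bp the median highest fold was 3.23 with several summits and 4.69 with 1. From 600 to below 800 bp the values were 3.53 and 6.29, and at 800 bp or more they were 5.37 and 7.94. The widest peak with 1 summit, chr2:101950364-101951609 (1246 bp), reached 34.5-fold, although the next, chr3:96221894-96222973 (1080 bp), reached 4.84-fold.

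**Figure D2:**
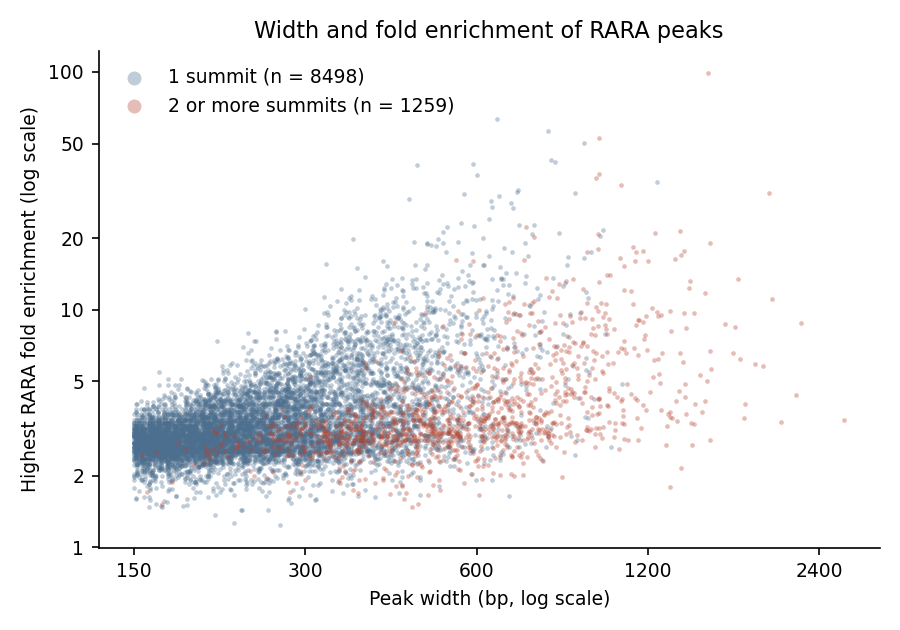
Each dot is 1 RARA peak, placed by its width in bp and by the fold enrichment of its highest summit (both log scales), for 8498 peaks with 1 summit and 1259 with several. Members extend to the right, and above 450 bp many of them lie below the peaks with 1 summit of the same width.

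Members differed in how evenly the signal was shared among their summits. The lowest summit's fold divided by the highest had a median of 0.820 over all members (quartiles 0.664 and 0.917) and ranged from 0.0556 to 1. In 683 members (54.2%) the ratio was 0.8 or more. These even peaks were low and short, with a median highest fold of 2.95 and a median width of 463 bp. In 173 members (13.7%) the lowest summit was under 0.5 of the highest. These dominated peaks had a median highest fold of 8.61, a lowest summit of 2.79-fold and a width of 916 bp. A further 403 members lay between the 2 classes. The limits of 0.5 and 0.8 were chosen after the values were seen, and the lowest summits had similar medians in the 3 classes (2.79, 2.62 and 2.69-fold), so the classes mainly order members by their highest summit.

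Among the 10 members with most summits, the lowest summit was under 0.5 of the highest in 6 and above that in 4. The peak with 9 summits, chr17:36053920-36055974, had fold enrichments of 3.38, 2.85, 2.55, 2.31, 2.78, 3.23, 3.08, 2.44 and 2.84 from left to right over 1745 bp. No summit stood out in it. By contrast, chr5:73293349-73295077 had 6 summits of 13.4, 3.23, 3.53, 3.17, 2.83 and 3.15-fold. Its first summit lay 6 bp from the summit of the mESC enhancer chr5:73293514-73293958, and the other 5 lay 338 bp or more away. In chr4:153203912-153205893, 5 summits of 4.31, 4.11, 7.05, 11.1 and 3.82-fold formed a rise towards the fourth, which lay 13 bp from the summit of an mESC enhancer. Of these 10 members, 2 had their strongest summit in an mESC enhancer, 4 in a plasmid input region and 0 in an RA-induced or LIF-dependent enhancer. Over all RARA peaks the shares were 7.23% for mESC enhancers, 46.4% for plasmid input regions, 1.08% for RA-induced and 0.758% for LIF-dependent enhancers. Counts out of 10 are too small to tell from these shares.

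The 10 members of highest fold were all dominated by 1 summit, which their choice by the highest summit in part sets. The RARA peak of highest fold in the whole list, chr3:152395775-152397306, was a member, with summits of 18.9 and 98.7-fold that lay 480 bp apart. The weaker of them was 43 bp from the summit of a plasmid input region, and the stronger was 523 bp from it and outside that region. The peak at chr10:68467540-68468522 had summits of 2.94 and 52.9-fold, and chr6:140554171-140555141 had 35.7 and 3.23-fold. At chr9:103274447-103275431 the 3 summits rose from 2.65 over 4.02 to 37.0-fold. Apart from the summit of 18.9-fold, the summits beside the strongest one in these 10 members had 2.40 to 4.48-fold, next to a median highest fold of 3.07 over all RARA peaks. In 6 of these 10 members the strongest summit lay in a plasmid input region and in 2 in an mESC enhancer. The shares over all RARA peaks were 46.4% and 7.23%.

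**Figure D3:**
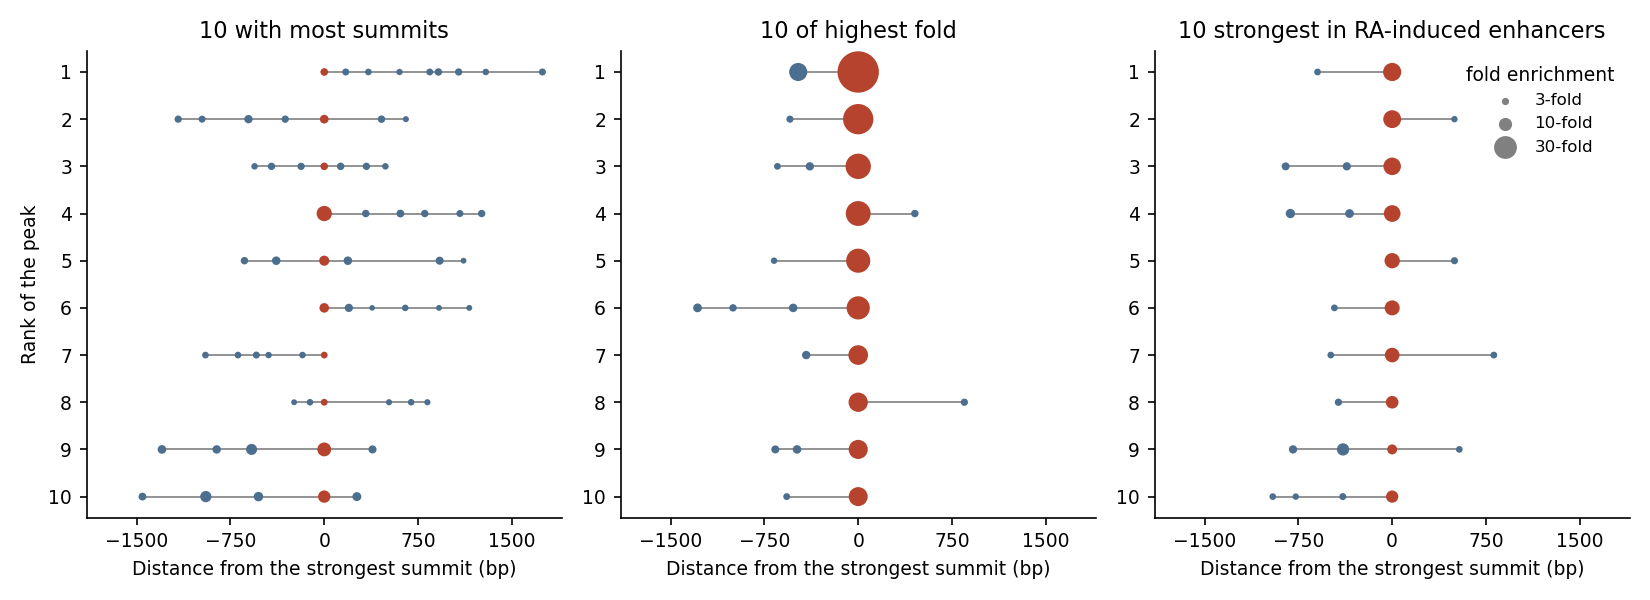
Summits of 30 named members are drawn along the peak as distance in bp from the strongest summit (highest −log10 q, red), with dot area in proportion to fold enrichment; rows are ranks within the 10 with most summits, the 10 of highest fold and the 10 strongest in RA-induced enhancers. In the first group 4 of 10 rows have a lowest summit of at least 0.5 of the highest and 6 do not, and in the group of highest fold all 10 rows have 1 large dot with smaller ones beside it.

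Neither side of the peak was favoured by much. Among members with 2 summits the left one was the stronger in 456 and the right one in 519, with 26 tied. With 3 summits the middle one was the strongest in 58 of 192 peaks without a tie (30.2%).

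A member was counted in a list where the base of its strongest summit, the one with the highest −log10 q, lay inside a listed region. This uses 1 base per peak, so a wider peak offers no more bases to be counted. For RA-induced enhancers, 17 of 1259 members (1.35%, 95% Wilson interval 0.845 to 2.15%) were counted, against 88 of 8498 peaks with 1 summit (1.04%, 0.841 to 1.27%). Over all RARA peaks the share was 1.08%. In LIF-dependent enhancers there were also 17 members (1.35%), against 57 peaks with 1 summit (0.671%), with 0.758% over all peaks. mESC enhancers held the strongest summit of 125 members (9.93%, 8.40 to 11.7%) and of 6.83% of peaks with 1 summit (6.31 to 7.38%), with 7.23% over all peaks. Plasmid input regions held that of 631 members (50.1%, 47.4 to 52.9%) and of 45.9% of the others (44.8 to 47.0%), with 46.4% over all peaks. About the same number of members, 626, thus had their strongest summit outside every list.

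In a logistic model over all 9757 peaks with p-values adjusted over 8 tests, the odds of an mESC enhancer were higher for members by a ratio of 1.50 (95% interval 1.23 to 1.84, n = 9757, adjusted p = 6.39e-04). The odds of a LIF-dependent enhancer were higher by a ratio of 2.03 (1.18 to 3.49, n = 9757, adjusted p = 0.0221), and those of a plasmid input region by 1.18 (1.05 to 1.33, adjusted p = 0.0135). For RA-induced enhancers the ratio was 1.31 and its interval spanned 1 (0.776 to 2.21, n = 9757, adjusted p = 0.359). That ratio was past the threshold when members with 3 or more summits were set against peaks with 1 (4.26, n = 8756, adjusted p = 3.61e-05) and when whole peaks were overlapped (2.02, adjusted p = 0.00286). With 3 or more summits the LIF-dependent ratio was 4.74 and the mESC ratio 2.50, and with whole peaks they were 3.08 and 2.03. A wider peak offers more bases when whole peaks are overlapped. At equal fold and width the whole-peak ratios were 0.441 for RA-induced, 1.38 for LIF-dependent and 0.899 for mESC enhancers.

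By number of summits, RA-induced enhancers held the strongest summit of 6 of 1001 members with 2 summits (0.599%), 7 of 196 with 3 (3.57%), 4 of 45 with 4 (8.89%) and 0 of 17 with 5 or more, which allows up to 17.6%. LIF-dependent enhancers held that of 0.899% with 2 summits, 3.57% with 3, 2.22% with 4 (1 peak) and 0 of 17 with 5 or more. For mESC enhancers the shares were 8.49% with 2 summits, 13.8% with 3, 22.2% with 4 and 17.6% with 5 or more (3 of 17, 6.19 to 41.0%). The plasmid input shares were 49.6%, 54.1%, 48.9% and 41.2% in the same order. Peaks with more summits were also wider, at a median of 504 bp with 2 summits, 842 bp with 3 and 1107 bp with 4. The part of width alone in these shares was not tested. Logistic models with log2 fold and log2 width set peaks with 3 or more summits against peaks with 1 (n = 8756). There the RA-induced odds ratio was 0.625 (95% interval 0.252 to 1.55), next to 4.26 without covariates. The mESC ratio was 0.845 (0.540 to 1.32), next to 2.50. The LIF-dependent ratio was 2.74 (0.893 to 8.40), next to 4.74, and the plasmid input ratio 0.721 (0.536 to 0.969), next to 1.29.

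At equal RARA fold and width, which entered the model as log2 values, the odds ratio lay below 1 for 3 of the 4 lists. The odds ratio of members for an RA-induced enhancer was 0.268 (0.135 to 0.532, n = 9757, adjusted p = 6.50e-04). It was 0.725 for mESC enhancers (0.555 to 0.948, n = 9757, adjusted p = 0.0302) and 0.846 for plasmid input regions (0.728 to 0.985, adjusted p = 0.0411). For LIF-dependent enhancers it was 1.15, with an interval from 0.55 to 2.41 (n = 9757, adjusted p = 0.709). The RA-induced result rests on width as a covariate, since with fold alone the ratio was 0.861 (n = 9757, adjusted p = 0.594), and with 3 or more summits against 1 it was 0.625 (adjusted p = 0.356). In the other settings this ratio ranged from 0.152 with width alone to 0.481 with quintiles of fold and width. With whole peaks it was 0.441, so its size depends on how width enters and on the overlap rule. With fold alone the mESC ratio was 1.28 (n = 9757, adjusted p = 0.0386), on the other side of 1, and the mESC and plasmid input calls at equal fold and width were lost under several other settings.

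**Figure D4:**
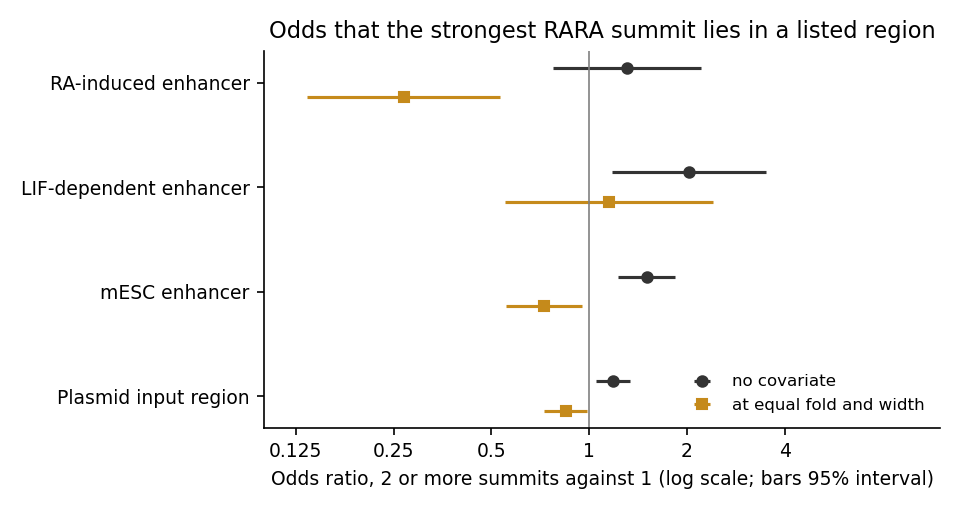
Odds ratios (log scale) that the strongest summit of a RARA peak lies in a listed region, for 1259 peaks with several summits against 8498 with 1, with 95% intervals as bars. Circles have no covariate and squares have log2 fold and log2 width as covariates; the square for RA-induced enhancers, at 0.268, lies farthest from 1.

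In counts by width, below 600 bp, the strongest summit lay in an RA-induced enhancer in 0 of 696 members, which allows a share of up to 0.431%, against 70 of 8271 peaks with 1 summit (0.846%). From 350 to below 600 bp the counts were 0 of 506 members (up to 0.593%) and 37 of 1514 peaks with 1 summit (2.44%, 1.78 to 3.35%). At 600 bp or more they were 17 of 563 (3.02%, 1.89 to 4.78%) and 18 of 227 (7.93%, 5.07 to 12.2%). For LIF-dependent enhancers the shares of members and of peaks with 1 summit were 0.575% and 0.653% below 600 bp, 0.593% and 0.925% from 350 to below 600 bp, and 2.31% and 1.32% (13 and 3 peaks) at 600 bp or more. Plasmid input regions held 55.6% of members of this width (51.5 to 59.6%) and 67.4% of peaks with 1 summit (61.1 to 73.2%). The bounds of 350 and 600 bp were chosen after the values were seen.

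**Figure D5:**
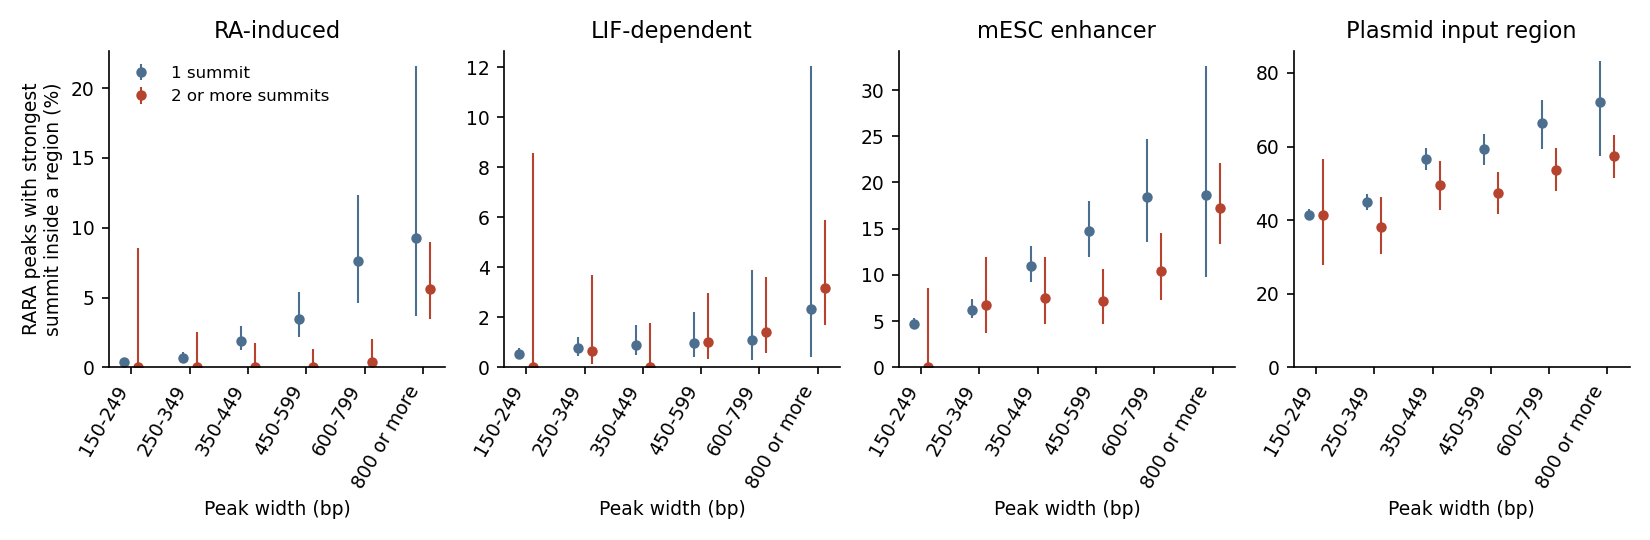
The share of RARA peaks (percent) whose strongest summit lies in a region of each of the 4 lists is plotted by peak width in bp, for peaks with 1 summit and with 2 or more, with 95% Wilson intervals as bars; the vertical scales differ between panels. No member under 600 bp has its strongest summit in an RA-induced enhancer. In each width class from 350 bp on, the shares of members in mESC enhancers and in plasmid input regions are below those of peaks with 1 summit.

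For all 4 lists the share was higher in dominated than in even members, as a description without a test. RA-induced enhancers held the strongest summit of 14 of 173 dominated members (8.09%, 4.88 to 13.1%), 3 of 403 in between (0.744%) and 0 of 683 even ones, which allows up to 0.439%. For mESC enhancers the shares were 24.3% (18.5 to 31.2%), 9.43% (6.95 to 12.7%) and 6.59% (4.96 to 8.70%). For plasmid input regions they were 68.8% (61.5 to 75.2%), 49.9% and 45.5% (41.8 to 49.3%). For LIF-dependent enhancers they were 4.05%, 1.74% and 0.439%. Fold and width moved with these classes, as given above, and their part was not tested.

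The 17 members in RA-induced enhancers were 697 to 1912 bp wide, with a median highest fold of 8.72 (3.98 to 19.1). Of them 6 had 2 summits, 7 had 3 and 4 had 4. The ratio of their lowest to their highest summit had a median of 0.298. The strongest summit lay a median of 36 bp (8 to 105 bp) from the summit of the enhancer. Members were counted only where this summit lay inside the enhancer, so its closeness is in part set by the rule. The enhancers themselves were induced by a median of 5.07-fold (2.94 to 9.45), against 5.58-fold (2.23 to 20.3) for those holding a peak with 1 summit. In 15 of the 17 the strongest summit also lay in an mESC enhancer, as it did in 62 of the 88 peaks with 1 summit in RA-induced enhancers.

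At chr3:95456117-95457661, the member of highest RARA fold among them, the summits reached 2.64 and 19.1-fold and lay 597 bp apart. The stronger was 86 bp and the weaker 683 bp from the summit of the enhancer chr3:95456888-95457230, whose reporter activity was 6.63-fold higher after RA. At chr2:30634436-30635565 the order was reversed along the genome, with 18.4-fold at the left and 2.37-fold at the right summit, 44 and 454 bp from the summit of an enhancer induced 4.48-fold. Both peaks had 1 high summit inside the enhancer, which the rule for counting them requires, and 1 low summit outside it.

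With 3 summits, chr5:33877742-33879158 had its high one in the middle, at 2.61, 12.4 and 2.65-fold, and the middle summit was 8 bp from that of an enhancer induced 4.52-fold. The peak at chr6:140145877-140147076 had summits of 5.02, 4.45 and 16.1-fold. The highest lay 17 bp from the summit of the enhancer chr6:140146629-140146912, which had the largest induction among members, 9.45-fold, and was not in the mESC list. At chr1:88206689-88207832 the 4 summits had 2.57, 2.42, 2.84 and 8.65-fold, and the last was 11 bp from the summit of an enhancer induced 6.30-fold. The 3 low maxima thus stood on the same side of the high one.

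In the peak at chr11:69516607-69518247 the summit of highest fold lay outside the enhancer. Its 4 summits had 4.02, 8.72, 5.76 and 2.60-fold, and the third had the highest −log10 q although the second had the highest fold. The third lay 32 bp from the summit of an enhancer induced 6.01-fold, and the second lay 361 bp away. In 82 members the summit of highest fold was not that of highest −log10 q.

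The 17 members in LIF-dependent enhancers had a median ratio of lowest to highest summit of 0.580. This ratio was 0.298 for the 17 in RA-induced enhancers and 0.820 over all members. The median highest fold of the members in LIF-dependent enhancers was 4.51 (2.98 to 21.5). All 17 also lay in mESC enhancers, as did all 57 peaks with 1 summit in LIF-dependent enhancers. Their enhancers were higher with LIF by a median of 4.13-fold (2.16 to 8.38), against 4.67-fold for those holding a peak with 1 summit. The strongest was chr12:87842455-87843818, with summits of 21.5 and 3.04-fold, 849 bp apart. Its first summit lay 19 bp from that of an enhancer 4.17-fold higher with LIF. At chr5:25060058-25061397 summits of 2.84 and 16.4-fold lay 659 and 27 bp from the summit of an enhancer 4.13-fold higher with LIF.

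The 10 members in mESC enhancers of highest activity score had a highest RARA fold of 2.74 to 12.2. Of them 4 were in the top 10% by RARA fold, as were 16.5% of all members. Members in that top 10% had their strongest summit in an mESC enhancer more often (19.7%) than all members (9.93%). The count out of 10 was not tested against these shares. The authors' activity score has no stated scale. It was 4.06 at chr6:39689341-39690117, whose summits had 2.38 and 8.13-fold, 3.87 at chr4:153203912-153205893, described above with a highest summit of 11.1-fold, and 3.85 at chr7:141038547-141039101, whose 4 summits had 2.64, 2.64, 2.64 and 3.01-fold. At chr3:130433164-130433704, with a score of 3.78, the 3 summits had 2.13, 2.03 and 2.74-fold. Over the list the score had a mean of 2.58 ± 0.647 (SD, n = 125 enhancers) with members and 2.61 ± 0.675 (SD, n = 580) with peaks of 1 summit. The difference was −0.033 (95% interval −0.16 to 0.093), and did not pass the test in a linear model (n = 705 enhancers, adjusted p = 0.604).

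In members with 2 summits, the stronger RARA summit was more often the one nearer to the summit of the other assay. In mESC enhancers this held for 74 of 115 peaks without a tie (64.3%, 95% exact interval 54.9 to 73.1%, exact binomial test against 50%, adjusted p = 0.00538). In plasmid input regions it held for 352 of 583 (60.4%, 56.3 to 64.4%, exact binomial test, adjusted p = 2.45e-06). The stronger summit lay a median of 93 bp from the mESC enhancer summit and the weaker 194 bp, and 131 and 206 bp from the input region summit. Where the summits were 300 bp or more apart, the shares were 72.0% of 50 peaks and 66.7% of 207. In RA-induced enhancers it held for 6 of 10 peaks (exact interval 26.2 to 87.8%) and in LIF-dependent enhancers for 8 of 16, numbers at which a share of this size was not detectable. These peaks were those with any summit inside the region, so a peak could enter through its weaker one.

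Listed enhancers seldom covered the whole row of summits. Of 27 members that overlapped an RA-induced enhancer, 22 had a summit inside it, 21 had exactly 1 inside and 0 had all of them inside. In 5 of the 22 it was a weaker summit. Of 31 members that overlapped a LIF-dependent enhancer, 27 had a summit inside and 3 had all summits inside. Of 188 members that overlapped an mESC enhancer, 166 had a summit inside, and in 31 all summits were inside. Plasmid input regions covered more, since of 848 members that overlapped one, 378 had all summits inside, and in 361 of these a single region held them. Among all RARA peaks, 1.21% overlapped an RA-induced enhancer, 1.02% a LIF-dependent enhancer, 8.87% an mESC enhancer and 55.6% a plasmid input region.

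Plasmid input regions at members more often had several summits of their own. Of the 631 input regions that held a member's strongest summit, 243 (38.5%, 34.8 to 42.4%) were listed with several summits, against 776 of 3879 (20.0%, 18.8 to 21.3%) at peaks with 1 summit and 4.03% of all input regions. Their median widths were 608, 478 and 327 bp in the same order, and the part of width was not tested. The log2 fold of these input regions in the plasmid library had a mean of 3.12 ± 0.75 (SD, n = 630) with members and 3.07 ± 0.765 (SD, n = 3867) with peaks of 1 summit, a difference of 0.05 (95% interval −0.02 to 0.11, adjusted p = 0.270, linear model).

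Members lay closer to other RARA peaks. Another RARA peak was found within 10 kb of 711 members (56.5%) and of 39.6% of peaks with 1 summit, and within 1 kb of 298 (23.7%) and 13.1%. The share of members among RARA peaks was 10.0% on chromosome 18 and 17.1% on chromosome 13 (101 of 590, 14.3 to 20.4%), and was 16.5% on chromosome 4 (151 of 914, 14.3 to 19.1%). Of 118 RARA peaks on unplaced sequences or the mitochondrial genome, 18 were members. One of these, on the mitochondrial genome at positions 15201 to 16290, had the highest −log10 q of all RARA peaks, 61100, with a fold of 15.2.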

How the data were processed

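RARA ChIP-seq (1 library, 1 input library) and FAIRE-STARR-seq (3 samples with LIF, 3 after RA, 1 plasmid input) were grouped by their titles. The submitters' processing notes name MACS2, Bowtie2, SAMtools, deepTools and UMI-tools and build mm9, with settings, versions and order not given in the sources used here. Each deposited peak list gives per summit a score, the fold enrichment (a ratio), the −log10 p and −log10 q and the summit offset, and the peak names speak of merged replicates. A deposited table gives an activity score per mESC enhancer, of unstated scale. Fold, −log10 q and activity score are the authors' own values. Filters of the lists and read depth are not given either, so the precision of a single peak value is unknown.

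Summit entries that share chromosome, start and end were collapsed to 1 region, which left 9757 of 11366 entries for RARA, 382 of 386 for RA-induced, 601 of 616 for LIF-dependent, 4674 of 4787 for mESC enhancers and 186959 of 195417 for input regions. The strongest summit was that of highest −log10 q, with ties going to the higher fold and then to the left. Logistic models over all RARA peaks gave odds ratios with 95% Wald intervals, without covariates and with log2 highest fold and log2 width, and the Benjamini-Hochberg adjustment ran over 8 tests. Linear models with HC3 errors were adjusted over 2 tests and two-sided exact binomial tests (Clopper-Pearson intervals) over 4. Shares carry 95% Wilson intervals, and a count of 0 was given the limit of 3 counts. Intervals cover counting error only, and peaks were treated as independent. The code was tested on simulated data. Alternatives changed the overlap rule, the definition of members, the covariates, the threshold and the peaks included.

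The members, lists and tests were chosen with earlier results of these data known. Named regions were the 10 members with most summits, the 10 of highest fold, the 15 of highest fold in RA-induced and the 5 in LIF-dependent enhancers, the 10 of highest activity score in mESC enhancers, the 3 of smallest and of largest gap, and the 3 widest and strongest peaks with 1 summit; the text gives a selection of these. The mitochondrial peak was named after its values were seen. The reference tables at hand were of another build than mm9, so genes, promoters, motifs and sequences, planned at first, were not analysed here. Models were fitted with statsmodels 0.14.6, binomial tests with SciPy 1.17.1 and figures drawn with Matplotlib 3.10.9, in Python 3.11.15 with pandas 2.3.3 and NumPy 2.4.6.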

Additional observations from a re-analysis of the deposited data

Results flagged for a closer look

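With fold and width as covariates, the contrast between members and peaks with 1 summit differed between RA-induced and LIF-dependent enhancers. Among the 179 RARA peaks whose strongest summit lay in either list, 34 of them members, the odds of being in the RA-induced rather than the LIF-dependent list were lower for members at equal fold and width, by a ratio of 0.139 (95% interval 0.0415 to 0.469, n = 179, p = 0.00146, logistic model). Without covariates the ratio was 0.648 (0.306 to 1.37, n = 179, p = 0.257). This test was added after the data were seen, and its p-values were not adjusted with the others. It was not repeated with fold alone or with 3 or more summits, where the RA-induced call was lost (0.861 and 0.625).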

How the results depend on the processing

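Of 98 alternative settings over all tests, 73 stayed on the same side of the threshold without a turn in direction, counting as no turn the share of strongest summits nearest a LIF-dependent enhancer summit (50%, and 44.4% and 60% in its alternatives) and the RA-induced share (60%, and 50% with any overlap). Without covariates the LIF-dependent odds ratio was 3.24 with outermost summits 300 bp or more apart. For RA-induced enhancers without covariates the odds ratio passed the threshold with whole peaks (2.02), with 3 or more summits against 1 (4.26) and with outermost summits 300 bp or more apart (2.99). At equal fold and width it lost the call with 3 or more summits (0.625) and with fold alone as covariate (0.861). For LIF-dependent enhancers at equal fold and width it fell to 0.903 with width alone. For mESC enhancers at equal fold and width the call was lost with whole peaks (0.899), a window of 150 bp to each side of the summit (0.850), 3 or more summits (0.845), outermost summits 300 bp apart (0.746), chromosomes 4 and 13 left out (0.733), quintiles (0.783), squared terms (0.746) and peaks of 300 to 1000 bp (0.750), and the ratio was 1.28 with fold alone. For plasmid input regions without covariates it was lost with 3 or more summits (1.29) and with −log10 q at or above the median (1.08). At equal fold and width it was lost with whole peaks (0.915), 3 or more summits (0.721), chromosomes 4 and 13 left out (0.872), squared terms (0.858) and peaks of 300 to 1000 bp (0.830), and was 1.07 with fold alone. The activity score difference, past the threshold in no setting, was 0.125 with 3 or more summits, and the log2 input fold difference was −0.0313 with whole peaks. The cause of these changes was not tested. The settings with 1 covariate, squared terms, a range of widths or placed chromosomes only were chosen after seeing the data.

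No paired analysis was possible because the deposited lists hold merged replicates and carry no replicate numbers, and for the same reason leaving out each replicate was not run. Read depth is not known for any of the lists.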

Other observations

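Among named members, 2 pairs lay within 10 kb of each other. The member chr4:141120770-141121860, whose summits had 3.13, 3.09 and 12.2-fold RARA enrichment, had its strongest summit in a LIF-dependent enhancer (3.50-fold higher with LIF). At a distance of 3305 bp lay the member chr4:141125166-141126553, with summits of 3.66, 3.95 and 17.7-fold and its strongest summit in an RA-induced enhancer (6.86-fold higher after RA). Of the 34 members in either changed list, this was the only such pair of opposite direction within 10 kb. The member chr6:140551380-140552363 (2.65 and 13.03-fold), in an RA-induced enhancer, lay 1807 bp from chr6:140554171-140555141 (35.7 and 3.23-fold), whose strongest summit was in a plasmid input region but in no enhancer.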
